A study of Caenorhabditis elegans with 2 samples.

Results

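The regions described here are the NFYA-1 regions that lie in the piRNA gene clusters of Caenorhabditis elegans chromosome IV. They were taken from the pooled ce11 list of peaks and background regions as those on chromosome IV with a summit between 4.5 and 7.0 Mb, called the left cluster, or between 13.5 and 17.2 Mb, called the right cluster. There were 690 of them, 350 in the left and 340 in the right cluster, of 2349 regions on chromosome IV and 15515 in the whole list, and the remaining 1659 regions of the chromosome served as the comparison. The choice used positions only, so signal and CCAAT boxes were not part of it. The bounds are those of the piRNA gene clusters, however. The high density of piRNA genes and of their promoter motif inside them therefore came with the choice and is not a result.

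The study measured NFYA-1 by chromatin immunoprecipitation and sequencing in 1 group of 2 biological replicates, so no condition was compared with another. Both were whole hermaphrodites at the late embryonic stage from strain OP404, with the genotype unc-119(tm4063) III; wgIs404, a line that stably carries NFYA-1 with a GFP-FLAG tag at its C terminus. The labels' descriptions name GFP as the antibody's target while the antibody field reads nfya-1, the age is given as unknown, and a single donor entry stands for both replicates. Tagged protein from a transgene was therefore measured, averaged over all cells of the embryo.

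In worms, piRNAs are called 21U-RNAs for their length and their first base. Most come from very short genes, each with a promoter of its own whose core element is known as the Ruby motif, packed in AT-rich stretches of chromosome IV between and within ordinary genes. They guide the Argonaute PRG-1 to foreign and transposon transcripts in the germ line. NFYA-1 is the subunit of the trimeric NF-Y complex that reads the CCAAT box, mostly at promoters.

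The annotation places 14204 of 15363 21U-RNA genes, 92.5%, in the clusters, which is 96.5% of those on chromosome IV. They number 1126 per Mb in the left cluster, 3078 per Mb in the right cluster and 45.2 per Mb on the rest of the chromosome. A pair of neighbouring 21U-RNA genes beside the strongest region of the clusters show how such a gene is built, with the core motif CTGTTTCA and the 21 bp of the RNA in capitals and the 60 bp upstream included.
21ur-8889 (chrIV:15571175-15571255, plus strand): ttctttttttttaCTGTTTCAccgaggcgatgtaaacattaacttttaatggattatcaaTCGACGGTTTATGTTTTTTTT
21ur-10547 (chrIV:15571282-15571362, plus strand): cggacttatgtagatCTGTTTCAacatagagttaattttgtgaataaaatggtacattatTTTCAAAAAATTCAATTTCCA
The core motif lay within 60 bp upstream of 34.8% of the 21U-RNA genes of the clusters. All sequences are from the RefSeq copy of the ce11 assembly and read 5′ to 3′ on the strand given.

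The strongest region in each cluster held no CCAAT within 50 bp of its summit, and their 101-bp summit windows are shown for that reason, in lower case throughout.
summit at the rpl-20 promoter, left cluster (chrIV:4750014-4750114, plus strand): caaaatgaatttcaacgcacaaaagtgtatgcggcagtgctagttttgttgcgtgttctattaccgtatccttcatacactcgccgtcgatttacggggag
summit beside 21ur-8889, right cluster (chrIV:15571014-15571114, plus strand): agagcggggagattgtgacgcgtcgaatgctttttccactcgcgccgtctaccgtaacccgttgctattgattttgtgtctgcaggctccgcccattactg
Other strong members held 2 CCAAT boxes on 1 strand, 32 bp from start to start. The pairs of 5 members among the 10 strongest of each cluster are shown with the boxes in capitals, and the member in the fcd-2 intron holds a pair on either strand.
intergenic, left cluster (chrIV:5715883-5715959, minus strand): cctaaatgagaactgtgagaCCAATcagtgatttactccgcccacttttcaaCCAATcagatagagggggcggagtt
upstream of fkh-7, left cluster (chrIV:5582910-5582986, minus strand): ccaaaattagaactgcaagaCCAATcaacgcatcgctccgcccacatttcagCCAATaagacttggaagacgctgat
nhr-46 intron, left cluster (chrIV:5752183-5752259, minus strand): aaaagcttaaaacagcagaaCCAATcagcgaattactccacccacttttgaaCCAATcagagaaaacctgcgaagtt
fcd-2 intron, right cluster, first pair (chrIV:15027483-15027559, plus strand): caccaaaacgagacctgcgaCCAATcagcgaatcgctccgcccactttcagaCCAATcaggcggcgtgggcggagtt
fcd-2 intron, right cluster, second pair (chrIV:15027551-15027627, minus strand): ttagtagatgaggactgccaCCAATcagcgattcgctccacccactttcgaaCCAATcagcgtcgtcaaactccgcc
ssu-2 intron, right cluster (chrIV:14366052-14366128, minus strand): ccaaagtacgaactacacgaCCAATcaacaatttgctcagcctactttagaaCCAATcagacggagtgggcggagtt
At the 67 positions outside the boxes, compared without gaps, the 15 comparisons between the 6 runs gave an identity of 46.3% to 71.6% with a median of 56.7%, and 18 of these positions held the same base in all 6. No identity between other members was computed to set beside this.

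Of the 5 strongest members within 100 bp of a 21U-RNA gene start, 4 held CCAAT within 50 bp of the summit, and these 4 are shown from 50 bp beyond the summit to the far end of that gene, with CCAAT on either strand and the 21U-RNA in capitals. A CCAAT on the opposite strand reads ATTGG.
nkcc-1 intron and 21ur-4044 (chrIV:14119469-14119602, minus strand): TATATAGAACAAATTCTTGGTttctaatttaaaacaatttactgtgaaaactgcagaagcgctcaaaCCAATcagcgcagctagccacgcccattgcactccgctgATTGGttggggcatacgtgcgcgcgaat
gcy-25 intron and 21ur-7197 (chrIV:15878407-15878549, minus strand): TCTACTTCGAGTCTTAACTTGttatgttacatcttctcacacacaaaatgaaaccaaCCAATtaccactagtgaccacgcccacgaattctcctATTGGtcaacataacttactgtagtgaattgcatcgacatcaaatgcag
tra-3 intron and 21ur-1077 (chrIV:14437551-14437659, minus strand): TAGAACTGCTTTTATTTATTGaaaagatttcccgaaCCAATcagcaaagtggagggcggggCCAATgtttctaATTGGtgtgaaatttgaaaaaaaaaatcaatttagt
upstream of prdh-1 and 21ur-27 (chrIV:13878295-13878445, minus strand): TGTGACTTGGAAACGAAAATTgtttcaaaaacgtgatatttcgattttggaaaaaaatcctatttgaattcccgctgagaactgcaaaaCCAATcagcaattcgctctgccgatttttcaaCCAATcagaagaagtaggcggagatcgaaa
In these 4, chosen for their CCAAT, the summit was 58 to 100 bp from the start of the 21U-RNA.

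A larger share of the cluster regions than of other regions of the chromosome had passed the authors' reproducibility analysis into the peak list. That was the case for 229 of 690 cluster regions, or 33.2% (95% Wilson interval 29.8 to 36.8), and for 414 of 1659 regions on the rest of chromosome IV, or 24.95% (22.9 to 27.1), against 26.4% of all 15499 regions on nuclear chromosomes. The difference was 8.23 percentage points (95% Newcombe interval 4.21 to 12.4). It was 8.32 points (4.30 to 12.4) with replicate 1 alone and 4.38 points (0.539 to 8.34) with replicate 2 alone, each taken by its own strongest regions in the same number. These intervals treat regions as independent and cover counting error only, and 27 pairs of neighbouring members had summits within 356 bp of each other.

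The right cluster, where the 21U-RNA genes are densest, carried the difference in share, although it was not richer in peaks per Mb. In it 129 of 340 regions, 37.9%, were in the peak list, 13.0 points above the rest of the chromosome (7.55 to 18.6). In the left cluster 100 of 350 regions, 28.6%, were, and the interval of its difference from the rest, 3.62 points, included 0 (-1.35 to 8.96). The right cluster exceeded the left by 9.37 points (2.34 to 16.3). Distance from the chromosome end gave a nearby comparison, chosen after the data were seen. Of 2170 regions at the same distances from the right ends of chromosomes I, II, III and V, 29.6% were in the peak list, 8.36 points below the right cluster (2.99 to 13.95).

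**Figure D1:**
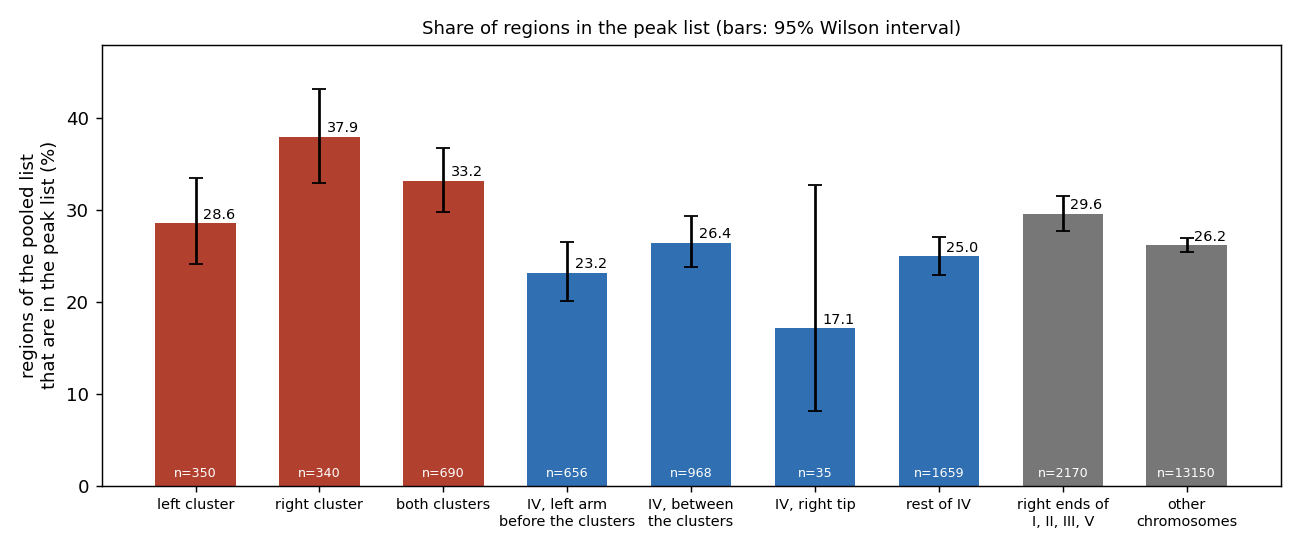
Share of pooled regions that are in the peak list, in percent, by place; bars reach 95% Wilson intervals and n is the number of regions. The right cluster stands at 37.9%, above every part of chromosome IV outside the clusters, while the interval of the left cluster, around 28.6%, overlaps theirs.

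The clusters were not richer in peaks per length of DNA. They held 36.9 peaks per Mb, and the rest of chromosome IV 36.7. The right cluster held 34.9 per Mb and the left 40. What the clusters held fewer of was regions outside the peak list, at 74.4 per Mb in the clusters and 110.3 per Mb on the rest. The whole list thus came to 111.3 regions per Mb in the clusters and 146.9 per Mb elsewhere. Within the clusters the right one was the sparser, with 57.0 regions outside the peak list per Mb against 100 in the left. Protein-coding genes followed the same order, at 124.1 per Mb in the right cluster, 192.8 in the left and 207.2 on the rest. The part of gene density in these counts was not tested.

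By the authors' signal value, an enrichment measure of unstated scale, cluster regions had a median of 36.1 and the rest of the chromosome 32.9. Membership of the peak list follows the same value, since every listed region outranks every unlisted one, so this is not a further result. The members ran from 22.5 to 1211, with a median of 41.1 in the right and 33.3 in the left cluster. At the edge of the peak list, the weakest listed member had a signal of 59.0 and the strongest unlisted member 58.0, both in introns of unc-5, the netrin receptor gene. At the edges of the clusters, the last summits inside and outside were 4504057 and 4488005 at the 4.5 Mb bound, with signals of 23.6 and 30.9, and 6998506 and 7016753 at 7.0 Mb, with 34.6 and 131.7. They were 13503696 and 13491350 at 13.5 Mb, with 34.6 and 39.7, and 17189181 and 17206751 at 17.2 Mb, with 23.2 and 38.1. Of these 8, only the region just beyond 7.0 Mb was in the peak list.

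The members were found in the replicates' own lists about as often as other regions. Summits of 80.9% of the members (77.8 to 83.6) and of 79.3% of regions on the rest of the chromosome lay inside a region of replicate 1's list, and 85.4% (82.5 to 87.8) and 82.2% inside one of replicate 2's. Those lists are longer than the pooled one. With each shortened to its strongest regions in the same number, 72.9% of the members were found in replicate 1, 72.0% in replicate 2 and 53.3% in both. Of the 229 listed members, 228 were found in replicate 1 and 228 in replicate 2 in the whole lists. For the 414 listed regions on the rest the counts were 413 and 410. The peak list rests on the reproducibility of these same replicates, so this is not a further result. Among the 227 listed members with a signal in both, the ratio of replicate 1 to replicate 2 had a median of 1.08, and 209 were within 2-fold of each other.

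The strongest member lay in a stretch dense in piRNA genes. Its summit at position 15571064 was 171 bp from 21ur-8889, with 14 21U-RNA genes within 1000 bp, no CCAAT, and the nearest coding start, that of Y105C5A.1, 6637 bp away. Its signal was 1211 in the pooled list, 670.3 in replicate 1 and 559.8 in replicate 2, rank 15 in each of the 3 lists. By contrast, the strongest member of the left cluster, with a signal of 984, was at the promoter shared by rpl-20, a ribosomal protein gene, and Y17G9B.5, with no 21U-RNA gene within 1000 bp. It reached 486.9 in replicate 1 and 501.1 in replicate 2.

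Of the next 9 members of the right cluster, 4 lay in introns, 3 at promoters, 1 in intergenic DNA and 1 in a 3′ UTR. The member in srt-47, a chemoreceptor-family gene, had 335.6 in replicate 1 and 226.3 in replicate 2. The member in nkcc-1, a cation-chloride cotransporter gene, had 242.3 and 248.7, the member in fcd-2, the Fanconi anaemia gene, had 249.4 and 196.2, and that in ssu-2 had 182.9 and 176.2. An intergenic member with 289.3 in replicate 1 and 193.3 in replicate 2 had its summit 209 bp from cel-mir-52, a microRNA gene. Promoters were those of dld-1 (dihydrolipoamide dehydrogenase), rpl-29 (ribosomal protein) and lin-66, with pooled signals of 437.1, 349.5 and 329.6. A member in the 3′ UTR of sfa-1, the splicing factor 1 gene, had 127 in replicate 1 and 224.2 in replicate 2, the widest ratio among these 10, and it aligned with the srt-47 member.

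The other strong members of the left cluster were spread over promoters, introns and intergenic DNA. The promoter of vha-8, a vacuolar ATPase subunit gene, had 212.9 in replicate 1 and 192.6 in replicate 2. The promoter of hil-7, a linker histone gene, had 214.3 and 140.6, and that of sqd-1, an RNA-binding protein gene, had 156.5 and 145.9. Intergenic members lay 1213 bp upstream of unc-44 (ankyrin), 1761 bp upstream of fkh-7 (forkhead factor) and 671 bp upstream of usp-4, with pooled signals of 413.3, 318 and 275.3. A further intergenic member with a CCAAT pair had 231 and 233.2, the nhr-46 intron (nuclear receptor) had 161.2 and 134, and the 3′ UTR of set-15 had 226.7 and 196.3. All 20 were in the peak list, and in 14 of them replicate 1 had the higher value.

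**Figure D2:**
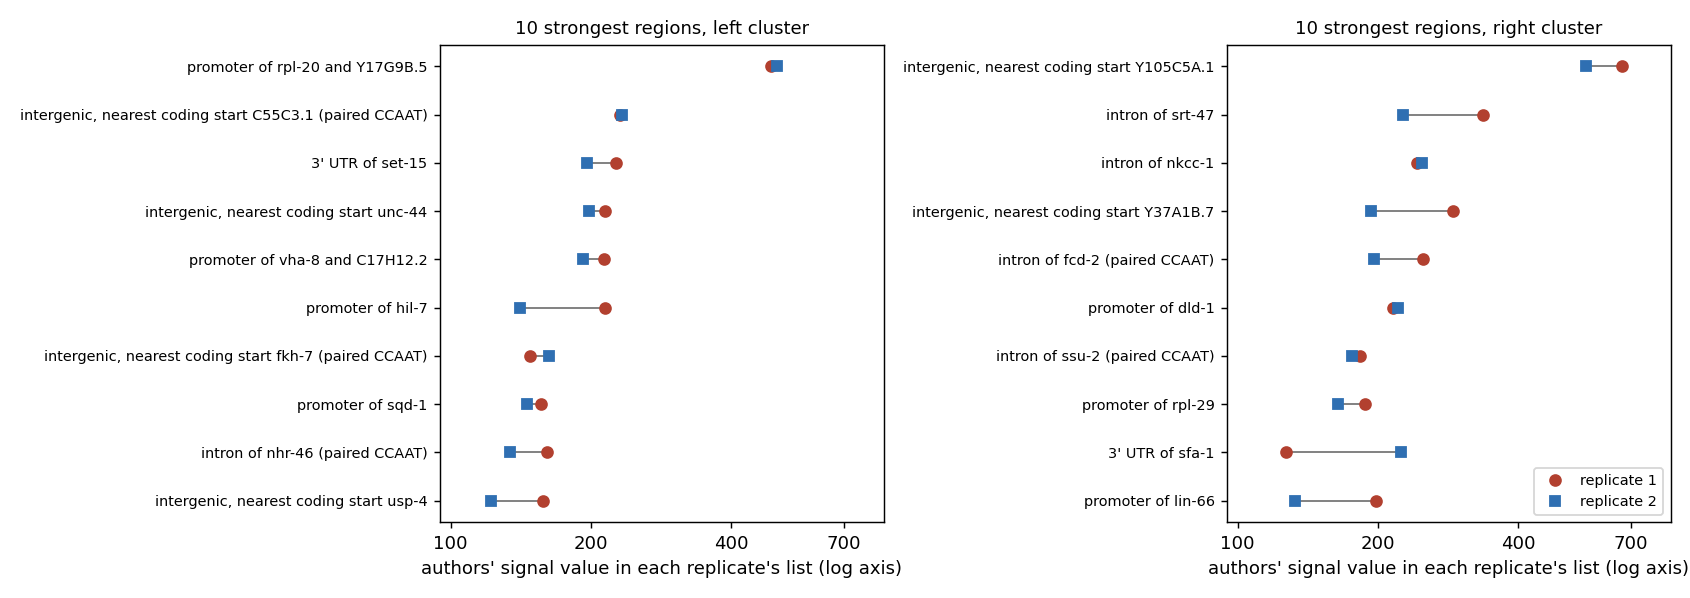
Authors' signal value, on a log axis, of the 10 strongest members of each cluster in replicate 1 (circles) and replicate 2 (squares), named by their place in the annotation. The points of a member lie within 2-fold of each other, and the top member of each cluster stands apart from the other 9.

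A smaller share of cluster regions than of other regions lay at coding promoters. Coding genes were also sparser in the clusters, at 151.8 per Mb against 207.2 on the rest. The part of gene density in the promoter share was not tested. A promoter was taken as 500 bp upstream to 100 bp downstream of a coding transcript's start. It held 157 of 690 cluster summits, 22.8%, and 506 of 1659 summits on the rest of chromosome IV, 30.5%, a difference of -7.75 points (-11.5 to -3.82). Among listed members 80 of 229 were at promoters, 34.9%, against 47.6% of listed regions on the rest of the chromosome. The other cluster summits were intergenic in 259 cases, intronic in 198, in coding exons in 54, in 3′ UTRs in 19 and in 5′ UTRs in 3. The higher share in the peak list was present away from promoters too: 31.7% of intergenic and intronic members and 22.5% of such regions on the rest were listed, a difference of 9.26 points (4.30 to 14.4).

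Member summits seldom fell on a 21U-RNA gene start. The nearest start was a median of 568 bp away, and 57.7% of the members had one within 1000 bp. A 21U-RNA gene start lay within 100 bp of the summit in 58 of 690 members, 8.41%, and within 100 bp of a point 500 bp to 1 side of it in 180, 26.1% (exact McNemar test, two-sided, p = 3.20e-22). The same held in the left cluster, with 6.29% at summits and 18% at flanks (exact p = 6.92e-07), in the right cluster, with 10.6% and 34.4% (p = 4.45e-17), and in listed members, with 3.93% and 25.8% (p = 3.17e-12). These tests and the later ones treat regions of 1 list as independent. Their p-values cover counting error over regions and not the spread between replicates. Seen from the genes, regions of the pooled list covered 3.81% of the bases of the clusters and held 172 of 14204 21U-RNA gene starts, 1.21% (1.04 to 1.40). Regions of the peak list covered 1.21% of the bases and held 31 starts, 0.218%.

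This difference went with base composition. GC content over 201 bp averaged 39.9% at member summits and 33.6% at their flanks. Over 101 bp it averaged 41.45% at summits, 33.8% at flanks and 28.4% around the 21U-RNA gene starts of the clusters. In a conditional logistic model of summit against flank, added after the data were seen, the odds of a 21U-RNA gene start at the summit were 0.170 of those at the flank (95% interval 0.111 to 0.260) without GC in the model and 0.691 (0.376 to 1.27) at equal GC, an interval that includes 1. Among the 176 members whose 101-bp summit window held no more GC than the flank, a start was present in 12.5% of summits and 10.8% of flanks (exact McNemar p = 0.6476). By stratum of GC, summits and flanks were far apart from 25% to 30%, at 21.9% of 32 summits and 47.6% of 164 flanks. They were closer in the other strata. Below 25% the shares were 50% of 8 summits and 51.6% of 95 flanks. From 30% to 35% they were 21.4% of 112 summits and 22.0% of 159 flanks. Further up they were 8.10% and 9.85% from 35% to 40%, 2.22% and 5.95% from 40% to 45%, and 1.35% and 0% from 45%. At equal GC the model's interval thus covered no difference as well as a marked drop.

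**Figure D3:**
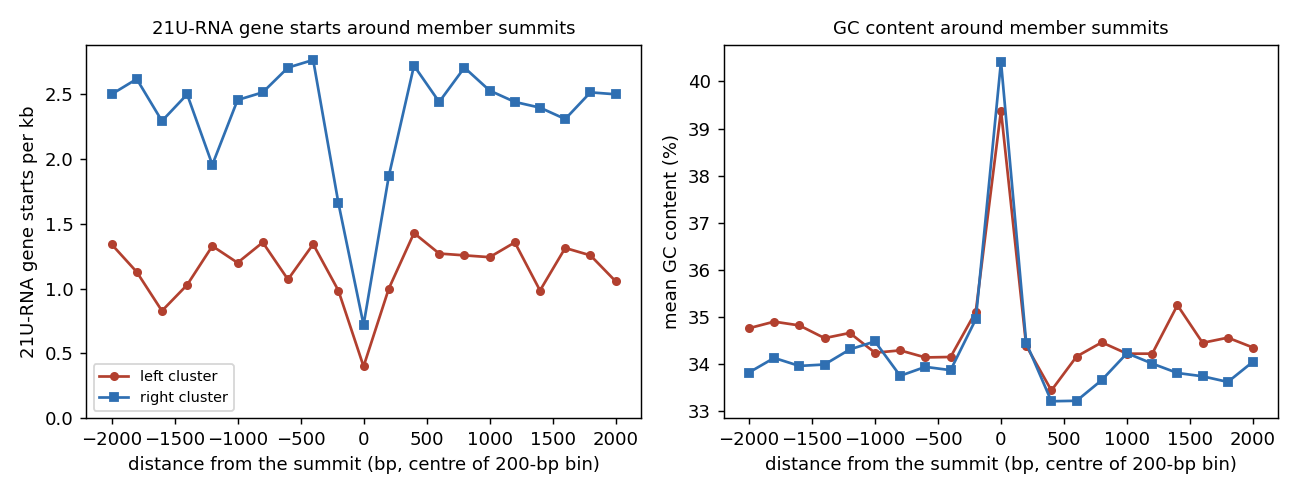
21U-RNA gene starts per kb (first panel) and mean GC content in percent (second panel) in 200-bp bins up to 2000 bp from member summits, for the left (circles) and right cluster (squares). Starts drop to 0.4 per kb in the left and 0.721 per kb in the right cluster at the summit, in the bin where GC rises to 39.4% and 40.4%.

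**Figure D4:**
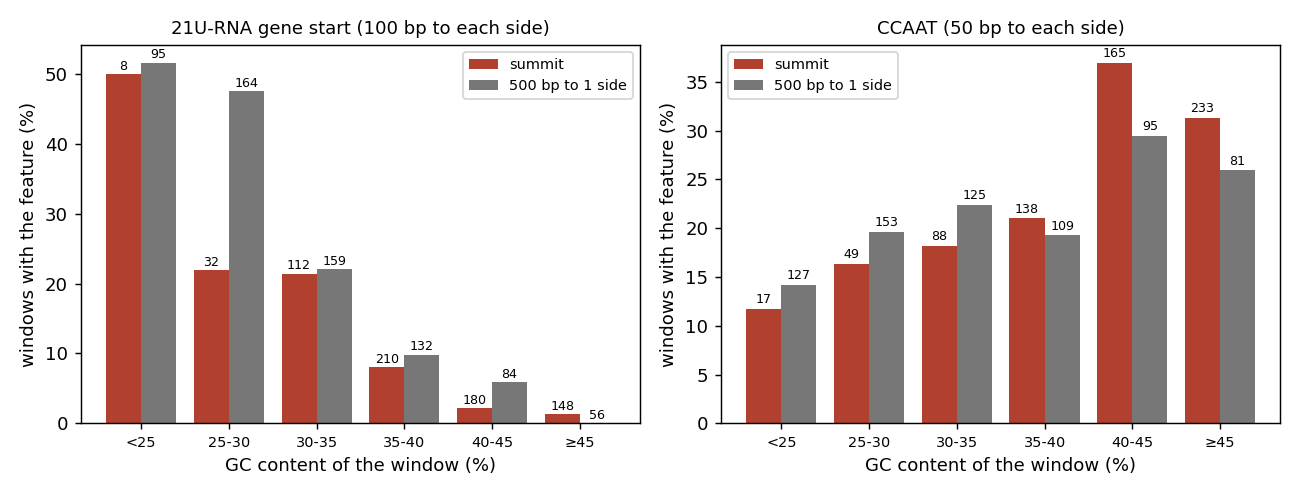
Windows with a 21U-RNA gene start (first panel) or CCAAT (second panel), in percent, by GC content of the window, at summits and 500 bp to 1 side; the numbers above the bars are windows. The share with a 21U-RNA gene start falls with GC in both kinds of window.

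The Ruby core, CTGTTTCA on either strand, gave a like picture. It is a feature of the clusters: of all 201-bp windows laid end to end, 14.6% in the clusters and 1.54% on the rest of chromosome IV contained it. Within 100 bp of member summits it was present in 25 of 690, 3.62%, and at their flanks in 101, 14.6% (exact McNemar p = 7.27e-13). The share was lower at summits on the rest of the chromosome too, at 0.603% of summits and 1.87% of flanks (exact McNemar p = 0.00145). On the other nuclear chromosomes it was 1.15% and 1.07%, and over all 15499 nuclear regions 1.20% of summits had it. At equal GC the odds at member summits were 0.432 of those at flanks (0.238 to 0.784), an interval below 1. With flanks 1000 bp away, however, they were 0.607 (0.322 to 1.14). In the 176 members with no more GC than their flank the shares were 5.11% and 5.68% (exact p = 1).

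The 58 members within 100 bp of a 21U-RNA gene start were mostly weak. Their signal had a median of 27.3, beside 36.1 for all members, and ran from 22.6 to 488.5. The peak list held 9 of the 58, beside 229 of all 690 members (33.2%) and 26.4% of all nuclear regions. Of those 9, 7 had CCAAT within 50 bp of the summit, a count made after the values were seen, beside 96 of all 229 listed members (41.9%). Over the 58 the count was 20, beside 189 of all 690 members (27.4%). A link between CCAAT and nearness to 21U-RNA genes was not tested. The strongest of the 58 was the member in the nkcc-1 intron, 83 bp from 21ur-4044 and with 2 CCAAT boxes. After it came those in the introns of gcy-25, a receptor guanylyl cyclase gene, with 118.6, and of tra-3, a calpain gene of sex determination, with 110.6. A member upstream of prdh-1, 100 bp from 21ur-27 and with a CCAAT pair, had 92.2, and one at the promoter of hda-6 and F41H10.4, 70 bp from 21ur-11261 and without CCAAT, had 84.0.

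CCAAT marked the strong members. Within 50 bp of the summit it was found on either strand in 96 of 229 listed members, 41.9% (35.7 to 48.4), and at their flanks in 49, 21.4% (exact McNemar p = 3.18e-06). In members outside the peak list the shares were 20.2% and 21.04% (exact p = 0.8103), near the 19.9% of all 101-bp windows of the clusters. Over all 690 the shares were 27.4% and 21.2% (exact p = 0.008667), and in the right cluster alone 28.8% and 23.8% (exact p = 0.1521). At equal GC the odds for listed members were 2.67 (1.40 to 5.09) and those for all members 1.14 (0.846 to 1.53). With GC in the model and flanks 500 bp away the interval thus stayed above 1 for listed members and included 1 over all members. With flanks 1000 bp away the odds over all members were 1.38 (1.03 to 1.84), an interval above 1, so this depended on the flank. Among the 176 with no more GC than their flank, CCAAT was in 38 summits and 44 flanks (exact p = 0.5258).

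With the members split by signal into 4 equal groups, from the weakest to the strongest, the share with CCAAT was 20.8%, 20.2%, 25% and 43.6%, beside 24.3%, 22.0%, 16.3% and 22.1% at the flanks. The share with a 21U-RNA gene start was 13.9%, 11.0%, 6.40% and 2.33%, beside 26.0%, 28.3%, 23.8% and 26.2%. Mean GC content of the summit window was higher in each stronger group, with 36.6%, 38.7%, 43.1% and 47.5%. In introns CCAAT was at 37.9% of summits and 23.2% of flanks (exact p = 0.003462), in intergenic DNA at 24.3% and 20.5% (exact p = 0.3261), and at coding promoters it was in 34 of 157 summits and 27 flanks (exact p = 0.3916).

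**Figure D5:**
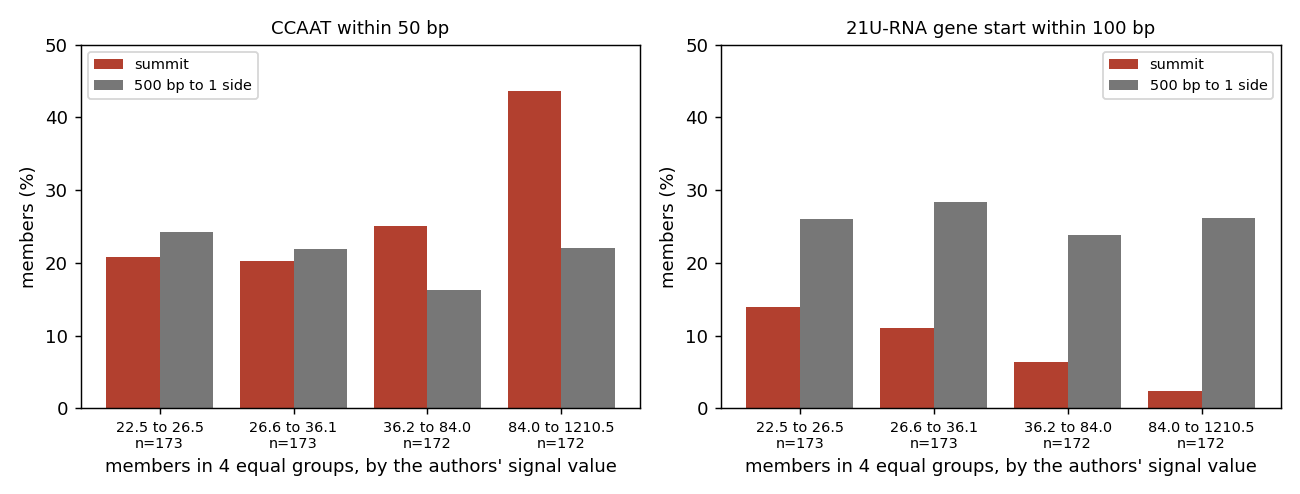
Members with CCAAT (first panel) or a 21U-RNA gene start (second panel), in percent, at summits and 500 bp to 1 side, in 4 equal groups by the authors' signal value from weakest to strongest. CCAAT stands above its flank in the groups from 36.2 upwards, while the 21U-RNA share at summits is below its flank in all 4.

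Compared with the rest of the chromosome, CCAAT was more frequent in listed members. It was present in 41.9% of these and in 29.95% of listed regions on the rest, a difference of 11.97 points (4.26 to 19.7), and in 32.9% of all 4084 listed nuclear regions. The right cluster differed by 14.2 points (4.77 to 23.8) and the left by 9.05, with an interval that includes 0 (-1.03 to 19.7). Over all cluster regions the difference was 4.06 points (0.243 to 8.03), and with replicate 2 alone 3.51 points (-0.237 to 7.39), which includes 0. In the right cluster 28.8% of regions held CCAAT, and at the right ends of chromosomes I, II, III and V 30.5% of 2170 did, a difference of -1.64 points (-6.60 to 3.74).

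Pairs of boxes were more frequent in the clusters than on the rest of the chromosome. A same-strand pair 32 bp apart lay within 100 bp of the summit in 29 of 690 members, 4.203%, and in 20 of 1659 regions on the rest, 1.21%, a difference of 2.997 points (1.58 to 4.82). Over all 15499 nuclear regions the share was 2.24%, so the rest of chromosome IV is a low comparison. Of the 29, 24 were in the peak list, 10.5% of listed members beside 3.62% of listed regions on the rest and 7.30% of all listed nuclear regions. The signal of the 29 had a median of 166.8, whereas that of the 160 members with unpaired CCAAT was 42.7 and that of the 501 without CCAAT 33.3. The right cluster held 20 of them and the left 9, the latter 2.57% of the left cluster's regions and near the share over all nuclear regions. A pair was present in 5.88% of right cluster regions and in 6.18% of those at the right ends of the other 4 autosomes, a difference of -0.293 points (-2.61 to 2.88). Of the 29 summits, 13 were in introns, 11 intergenic and 5 at promoters, and 21 had a 21U-RNA gene within 1000 bp, as had 100 of the 160 members with unpaired CCAAT and 277 of the 501 without. A median of 45.8% of the bases around them was soft-masked as repeat in the assembly, against 24.9% for unpaired CCAAT.

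Some members resemble one another in sequence. Of the 690, 32 fell into 13 families whose windows aligned over at least 50 bp, with 2 to 4 members each, and 4 of the 29 paired members were among them. The 2 members in the srt-47 intron and the sfa-1 3′ UTR made 1 such family. How reads were divided within a family was not tested, so the signals of these 32 are uncertain.

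tRNA genes, transcribed by RNA polymerase III, lay near another group of members. A tRNA gene was within 100 bp of the summit in 21 of 690 members, 3.04% (2.00 to 4.61), and in 16 of 1659 regions on the rest of the chromosome, 0.964% (0.595 to 1.56). In the peak list the counts were 14 of 229 and 9 of 414. Their signal had a median of 63.5 and a maximum of 124, 16 of the 21 were in the right cluster, and 3 held CCAAT. snoRNA genes were within 100 bp of 3 members, 0.435%, and 14 regions on the rest, 0.844%. For microRNA genes the counts were 2, 0.290%, and 4, 0.241%.

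Genes that act in the piRNA pathway had NFYA-1 peaks at a share near that of coding genes as a whole. Of 29 genes listed, 26 were matched in the annotation, and 2 of them, 7.69%, had a peak at the promoter, beside 11.2% of all 19973 protein-coding genes. snpc-4, whose product is a subunit of the complex that sits at 21U-RNA promoters, had a peak with signal 87.2, and tofu-1, needed for 21U-RNA processing, shared one of signal 77.9 with ruvb-1. With the whole pooled list 8 of the 26, 30.8%, had a region at the promoter, beside 23.7% of all coding genes, adding tofu-5, attf-6, tofu-6, tost-1, pid-3 and mut-16 at signals from 25.4 to 50.4. prg-1, hrde-1 and prde-1 had none. One gene of the list, slfl-4, lies in the left cluster, and its nearest peak was 60038 bp from its start.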

How the data were processed

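The authors deposited region lists in ce11 and ce10, called per replicate and on the pooled replicates, and a peak list of the regions that passed their reproducibility analysis (IDR), per the file listings. Each region has the authors' deposited signal value and a deposited q-value as −log10, which was not used here. Aligner, caller and thresholds: not given in the sources used here; depth is unknown. Members and gene lists were chosen with earlier results of these data known.

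The annotation was Ensembl release 115 and the sequence RefSeq's, both of the ce11 assembly. Motifs were searched on both strands within 50 bp (CCAAT) or 100 bp (CTGTTTCA, 21U-RNA gene starts) of the summit and of a point 500 bp to 1 side, left or right by rank. A summit that met several annotation classes took the first of coding promoter, 5′ UTR, coding exon, 3′ UTR and intron. Intron and intergenic were judged by protein-coding genes only, so an intergenic summit can lie in a non-coding RNA gene. Paired windows were compared with the exact McNemar test, shares with Newcombe intervals and GC with a conditional logistic model (statsmodels 0.14.6). Families came from blastn 2.17.0 (E-value at most 1e-08, windows of 178 bp to each side, overlapping windows left out). Named regions were the 10 strongest of each cluster, the 5 strongest within 100 bp of a 21U-RNA gene start, and those at the edges of the clusters and of the peak list. Scripts were tested on simulated data. Replicates left out, other windows, boundaries and builds were tried as alternatives.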

Additional observations from a re-analysis of the deposited data

How the results depend on the processing

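The peak lists carry no read depth, so weak regions cannot be told from regions that were shallowly covered, and 1 group of 2 replicates gives no error for a condition. Of 112 alternative values, 85 kept their direction and their side of the threshold, or moved little. In the left cluster alone the difference in the peak list share was 3.62 points, that in CCAAT 2.67 and that in paired boxes 1.37, each with an interval that includes 0. The CCAAT difference from the rest of the chromosome was 3.69 points with 100 bp to each side, with an interval that includes 0, and 3.51 to 5.10 when either replicate was left out. Against the right ends of the other autosomes it was -1.64 points, and that of paired boxes -0.293. Summit against flank, CCAAT differed by 5.00 points in the right cluster alone and no longer passed the threshold. In members with no more GC than their flank the differences were -3.41 points for CCAAT, 1.71 for 21U-RNA gene starts and -0.568 for the Ruby core. With GC as a model term and flanks 500 bp away the odds were 1.14 for CCAAT and 0.691 for 21U-RNA gene starts. With flanks 1000 bp away they were 1.38 and 0.592. In the peak list alone the Ruby core differed from the rest by 1.70 points, with an interval that includes 0. A difference of the clusters from the rest in this motif came with the choice of the clusters and is not a result. The cause of these shifts was not tested.

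The ratio of regions per Mb, clusters over rest, was 0.758. It was 1.01 in the peak list, 0.706 with boundaries moved 0.25 Mb inwards, 0.953 in the left and 0.626 in the right cluster, and 0.770 to 0.805 when either replicate was left out. The ratio of median signals, 1.10, was 1.18, 1.15, 1.01 and 1.25 under the same settings, and 1.03 to 1.08 when either replicate was left out. With summits within 100 bp of each other as the match, 77.2% of members were found in replicate 1 and 81.6% in replicate 2. With the pooled list, 8 piRNA pathway genes, 30.8% beside 23.7% of all coding genes, had a region at the promoter. No pairing of samples across conditions was possible because there is 1 group.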
